A study of Homo sapiens with 3 samples.

Results

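The human mitochondrial genome contributed 37 of the 58243 genes in the deposited gene tables, taken as every gene that the tables place on chromosome MT. They were 13 protein-coding genes, 2 ribosomal RNA genes and 22 transfer RNA genes. All 37 had the start, end and strand of the GENCODE 29 annotation of GRCh38. The 13 mRNA and 2 rRNA genes reached a mean of 50 reads per library and were compared with the other genes above that level, 12593 in all, whereas none of the tRNA genes reached it.

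The RNA came from cells labelled LoVo, an established human colorectal carcinoma line, with a Tet-On short hairpin RNA, switched on by doxycycline, against HRD1, the ubiquitin ligase of the endoplasmic reticulum encoded by SYVN1. The 3 libraries were from cells without doxycycline (day 0) and from cells given 1 µg/ml doxycycline for 3 days (day 3) or 5 days (day 5). All 3 therefore carried the hairpin construct. Total RNA was extracted, and a SMARTer kit for mRNA sequencing was used for the libraries. Doxycycline is a tetracycline, a class known to inhibit translation by mitochondrial ribosomes. No library of cells given doxycycline without the hairpin was analysed here, so hairpin and doxycycline cannot be told apart in any ratio below. There was 1 library per day, so no difference has a replicate check, no test between days was possible, and every 95% interval below covers counting error only.

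Mitochondrial DNA is a small circle that is transcribed from both strands into long precursor RNAs. Enzymes cut these precursors mainly at the tRNAs, which lie between most of the other genes, and the released mRNAs and rRNAs receive short poly(A) tails, with the exception of the ND6 mRNA. The mRNAs encode core subunits of respiratory complexes I, III and IV and of the ATP synthase (complex V), and the rRNAs form part of the mitochondrial ribosome that translates them. ATP8 with ATP6, and ND4L with ND4, are known to stay joined on shared mRNAs.

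The shared stretches are printed here because reads in them belong to a pair of genes at once. MT-ATP8 (ENSG00000228253, chrMT:8366-8572, plus strand, a single exon of 207 bases) overlapped the start of MT-ATP6 (chrMT:8527-9207, plus strand) by 46 bases, and MT-ND4L (ENSG00000212907, chrMT:10470-10766, plus strand, 297 bases) overlapped the start of MT-ND4 (chrMT:10760-12137, plus strand) by 7 bases. The sequences run 5′ to 3′, are from the GENCODE 29 transcripts (GRCh38), and have the bases shared with the partner gene in capitals. The first is the whole MT-ATP8 gene and the others are the first or last 60 bases of their gene.
MT-ATP8: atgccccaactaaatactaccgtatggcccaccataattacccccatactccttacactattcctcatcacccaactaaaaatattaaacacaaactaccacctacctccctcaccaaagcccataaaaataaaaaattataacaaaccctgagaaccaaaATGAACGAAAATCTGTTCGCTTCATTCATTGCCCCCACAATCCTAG
MT-ATP6: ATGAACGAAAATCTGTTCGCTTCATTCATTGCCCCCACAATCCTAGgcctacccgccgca
MT-ND4L: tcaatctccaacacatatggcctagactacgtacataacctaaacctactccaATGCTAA
MT-ND4: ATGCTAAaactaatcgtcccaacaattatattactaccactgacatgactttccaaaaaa

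MT-ND3 (ENSG00000198840, chrMT:10059-10404, plus strand, 346 bases) overlapped no other mRNA. Its last 61 bases are shown because its stop codon is not complete in the DNA. The capital marks the single base left after the last whole codon, and the poly(A) tail is known to supply the rest of the stop codon.
MT-ND3: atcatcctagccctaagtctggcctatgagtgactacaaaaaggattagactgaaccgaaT
In 6 of the 13 mRNAs the length was no whole number of codons; 5 of these ended in a lone T and 1, MT-ND1, in TA. The other 7 ended in a whole codon. GC content ran from 39.6% in MT-ATP8 to 47.7% in MT-ND1.

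The tables listed 21308785, 22068686 and 25754188 gene reads at days 0, 3 and 5, of which 89.2%, 88.6% and 87.6% were unique. SYVN1, the targeted gene, had 1212, 650 and 709 reads, or log2 ratios of -0.88 [-1.02 to -0.74] at day 3 and -1.05 [-1.19 to -0.92] at day 5 over day 0. Of 7 markers of colorectal epithelium, the keratins KRT8, KRT18 and KRT19 were abundant, with 1711 to 17837 reads in a library, but EPCAM had 17, 14 and 19 reads and CDH1 had 3, 2 and 10. VIL1 had 0, 0 and 16 reads and CDX2 had 0 in every library, whereas VIM, the intermediate filament of mesenchymal cells, had 102580, 114262 and 112459. The 4 other epithelial markers beside the keratins were thus at or near 0, which goes against the labelled colorectal epithelium. The day 5 library stood apart in its exon-exon reads and in the summed markers of other tissues below. Exon-exon reads were 60.7%, 61.8% and 57.7% of the gene reads at days 0, 3 and 5, and reads listed as intronic were 6.01%, 5.59% and 6.68%. The genes FP236383.1 and FP671120.1 set day 0 apart instead. Their log2 ratios were 0.73 and 0.69 at day 3 and 0.77 and 0.75 at day 5 over day 0. FP236383.1 had 120365, 196968 and 250099 reads and FP671120.1 had 110948, 176860 and 226066. Their TPM, a level that rests on exon reads, was only 2.39 to 3.64. The intronic share without them was not calculated, so that share is not read as setting any library apart. Further, 35 markers of hepatocytes, enterocytes, blood and striated muscle summed to 40, 100 and 1007 reads, with 13, 17 and 34 of the 35 detected. By list the sums were 8, 19 and 706 for hepatocytes, 4, 21 and 137 for enterocytes and 7, 42 and 137 for blood. Striated muscle had 21, 18 and 27. SERPINA1, a hepatocyte marker, was left out as the only one averaging 50 or more reads. It had 19332, 17422 and 20571 reads, or -0.19 at day 5 over day 0. The part of these measures in the mitochondrial ratios was not tested.

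Mitochondrial genes together held 0.714% [0.710 to 0.717], 0.605% [0.602 to 0.608] and 0.708% [0.705 to 0.712] of the gene reads at days 0, 3 and 5 (exact binomial intervals). Nearly all of these were mRNA reads. The 13 mRNA genes had 146020, 128172 and 174820 reads, which were 96.0%, 96.0% and 95.8% of the mitochondrial reads. The 2 rRNA genes had 6065, 5381 and 7603 reads (3.99%, 4.03% and 4.17%). The 22 tRNA genes, of 59 to 75 bases, had 9, 8 and 12 reads in all. The order mRNA, rRNA, tRNA in reads therefore held in each library. The libraries were made with a kit for mRNA, so this order does not rank the RNAs in the cells.

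Levels of single genes are given as CPM per kb: reads per 1000000 library reads (CPM), normalised by the trimmed mean of M-values (TMM) and divided by the gene's length in kilobases. The mRNAs differed widely among themselves. The highest was MT-CO1, the catalytic subunit of cytochrome c oxidase (complex IV), at 1351, 1104 and 1215 CPM per kb at days 0, 3 and 5, and the lowest was MT-ND6, the only mRNA read from the other strand, at 62.3, 55.7 and 78.4. The highest level was 21.7-fold, 19.8-fold and 15.5-fold above the lowest on this scale. The ND6 mRNA is also the exception without a poly(A) tail, and the part of the mRNA kit in its low level was not tested. MT-CO1 alone supplied 30.8%, 28.4% and 28.1% of the mitochondrial mRNA reads.

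**Figure D1:**
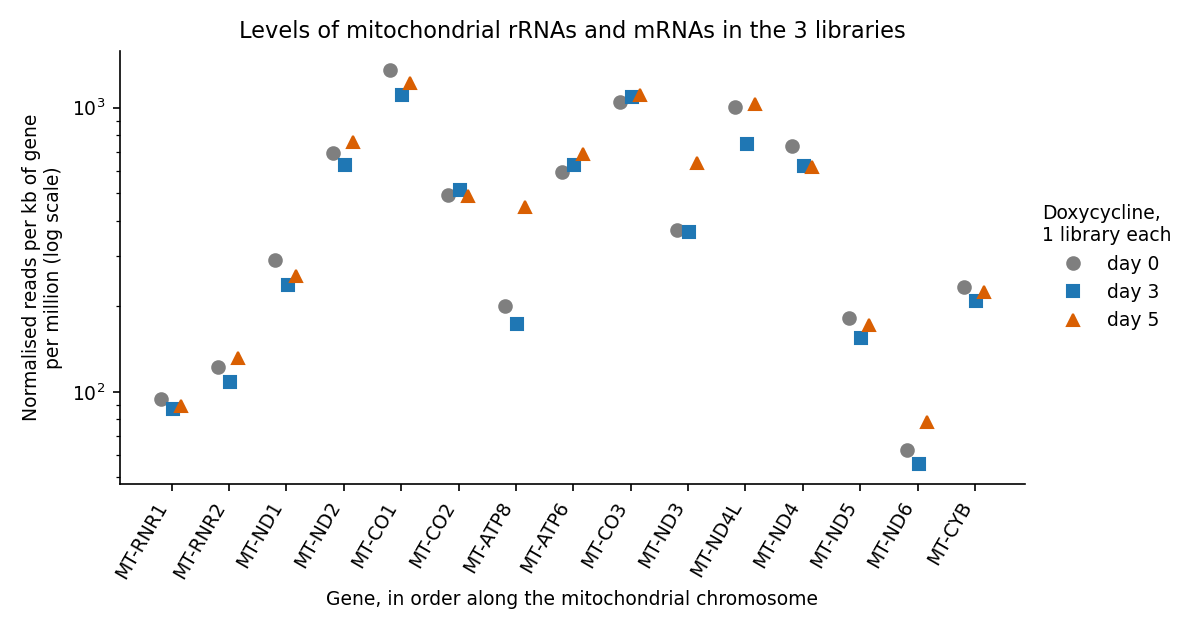
Level in CPM per kb (normalised reads per kilobase of gene, log axis) of the 2 rRNA and 13 mRNA genes of the mitochondrial genome, in gene order, with 1 point per library (grey circle day 0, blue square day 3, orange triangle day 5). MT-ATP8 and MT-ND3 stand higher at day 5 (448 and 639.7 CPM per kb) than in the other libraries, whereas most genes have their 3 points close together.

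At day 3 the mitochondrial mRNAs were slightly lower than at day 0 as a class. Their summed reads had a log2 ratio of -0.17 [-0.18 to -0.16], day 3 over day 0. Of the 13 genes, 10 had a ratio below 0 and 3 above it, with a median of -0.17 against 0.01 over the 12593 genes compared. No mRNA was 1.5-fold higher or 1.5-fold lower with an interval excluding 1, whereas 1.29% of all genes compared passed that rule as higher and 2.53% as lower. These ratios are relative to the other RNA of each library and give no amount per cell. In bulk RNA, a difference within each cell and a difference in the share of cells cannot be told apart either.

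At day 5 the class as a whole stood near its day 0 level, at -0.02 [-0.03 to -0.01], but its members had spread apart. The ratios ran from -0.24 for MT-ND4 to 1.16 for MT-ATP8, with 7 above and 6 below 0 and a median of 0.03, against 0.01 for all genes compared. MT-ATP8 and MT-ND3 passed as 1.5-fold higher, where 1.75% of all genes did, and no mRNA passed as lower, where 1.28% did. Day 5 over day 3 had 11 of 13 mRNAs above 0, with a median of 0.14 against 0.00 for all genes. The same MT-ATP8 and MT-ND3 passed as higher, beside 2.28% of all genes, and none passed as lower, beside 0.969%. The comparisons share libraries and are not independent of each other. After the trends of all genes with exon length and GC content were removed, the median at day 5 over day 0 turned to -0.20, and MT-ATP8 alone still passed. That removal also put MT-ND4L at -0.22, MT-CO3 at -0.10, MT-ND2 at -0.09 and MT-ATP6 at -0.01 at day 5 over day 0, each the other side of 0 from the values below, and MT-ND6 at 0.09.

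**Figure D2:**
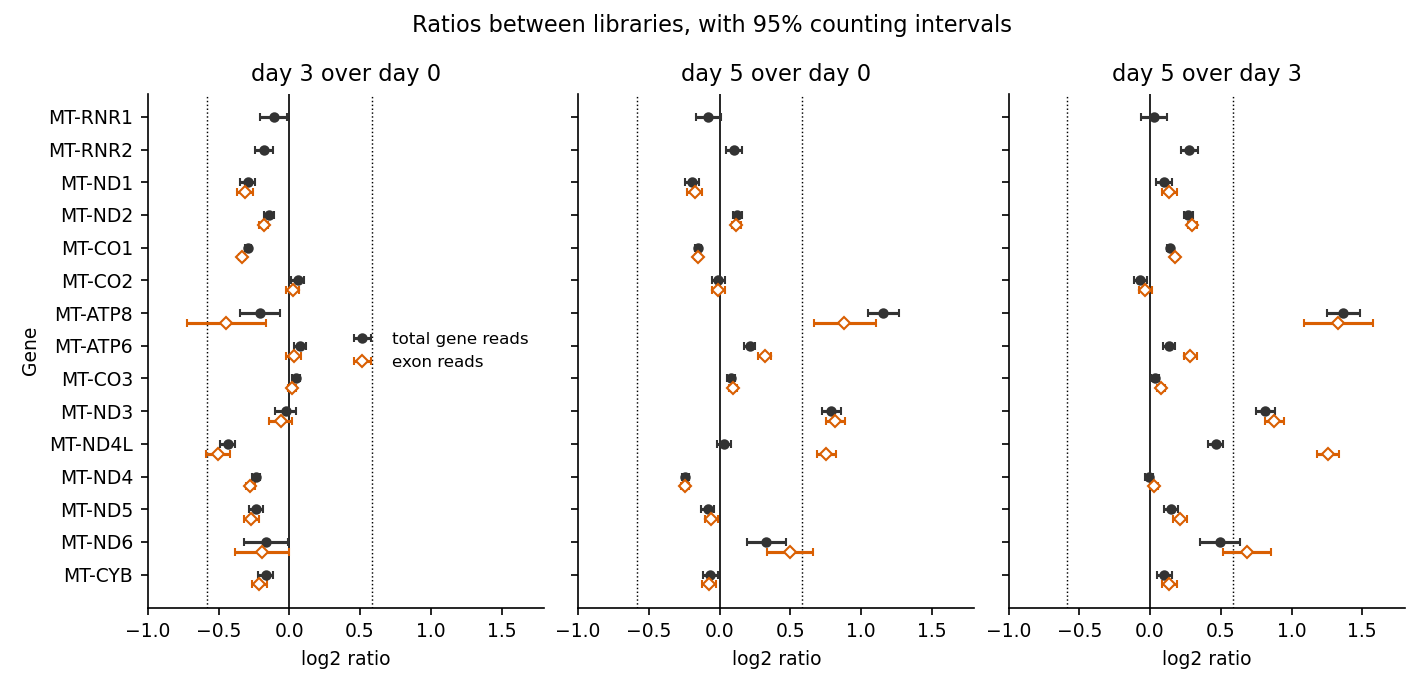
Log2 ratios of the 15 rRNA and mRNA genes in the 3 comparisons, from total gene reads (filled circles) and from exon reads (open diamonds), with bars for the 95% counting intervals and dotted lines at 1.5-fold. MT-ATP8 and MT-ND3 lie beyond the dotted line at day 5 over day 0 and over day 3 by both kinds of read, MT-ND4L in both comparisons only by exon reads, and MT-ND6 only at day 5 over day 3 and only by exon reads (0.69).

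MT-ATP8, a small membrane subunit of the ATP synthase, differed most. It had 898, 768 and 2433 reads at days 0, 3 and 5, or 201, 174 and 448 CPM per kb. The day 5 library alone was high. Its log2 ratio was -0.21 [-0.35 to -0.07] at day 3 over day 0, 1.16 [1.05 to 1.27] at day 5 over day 0 (2.23-fold), and 1.37 [1.25 to 1.48] at day 5 over day 3. Only 23 of the 12593 genes had a higher ratio at day 5 over day 0. Relative to the other 12 mitochondrial mRNAs, its day 5 over day 0 ratio was 1.19.

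MT-ATP6, the proton channel subunit that shares the mRNA and the 46 printed bases with MT-ATP8, had 593, 626 and 687 CPM per kb. Its ratio was 0.08 [0.03 to 0.12] at day 3 and 0.21 [0.17 to 0.25] at day 5 over day 0. The levels of the 2 genes on the shared mRNA thus stood at different proportions in the libraries. Per kb of total reads, MT-ATP8 was 0.339, 0.278 and 0.652 of MT-ATP6 at days 0, 3 and 5. By the authors' TPM, which rests on exon reads, MT-ATP8 had 246, 169 and 452 and MT-ATP6 had 1745, 1670 and 2167. That is a smaller proportion on each day. The mitochondrial mRNAs of complex V summed to ratios of 0.05 [0.01 to 0.09] at day 3 and 0.33 [0.29 to 0.37] at day 5 over day 0, above those of complexes I, III and IV on each day. At day 3 MT-ATP6 turned to -0.06 with the authors' TPM, a level per transcript length, by which the median of all genes was -0.08.

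Complex I, the NADH dehydrogenase, takes 7 of the 13 mRNAs. Their summed reads had a log2 ratio of -0.23 [-0.24 to -0.21] at day 3 and -0.02 [-0.03 to -0.00] at day 5 over day 0. MT-ND3, a small membrane subunit of that complex, had 2769, 2687 and 5810 reads, or 370.4, 364 and 639.7 CPM per kb. Here too the day 5 library alone was high, since the ratio was -0.03 [-0.10 to 0.05] at day 3 and 0.79 [0.72 to 0.85] at day 5 over day 0 (1.73-fold). The day 5 over day 3 ratio was 0.81 [0.75 to 0.88]. MT-ND3 lies just downstream of MT-CO3, with a tRNA gene between, and its level per kb was 0.353, 0.335 and 0.577 of that gene.

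MT-ND4L, another small membrane subunit of complex I, had another order of days. It had 6455, 4717 and 8004 reads, or 1006, 744 and 1027 CPM per kb, so that the day 3 library was low and the others close. Its ratio of -0.44 [-0.49 to -0.38] at day 3 over day 0 was the lowest of the 13 mRNAs, and short of 1.5-fold. Over day 0 the day 5 library was at 0.03 [-0.02 to 0.08], and over day 3 at 0.47 [0.41 to 0.52].

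MT-ND4, its partner on the shared mRNA and a proton-pumping subunit, had 733.5, 623 and 620.0 CPM per kb. Both later libraries were about equally low, with ratios of -0.24 [-0.26 to -0.21] at day 3 and -0.24 [-0.27 to -0.22] at day 5 over day 0. From total reads, MT-ND4L was 1.37, 1.19 and 1.66 of MT-ND4 per kb, but this proportion depends on the kind of read. By TPM, which rests on exon reads, MT-ND4L had 1729, 1142 and 2907 at days 0, 3 and 5. MT-ND4 had 2989, 2314 and 2516, so that MT-ND4L was the lower at days 0 and 3 and the higher at day 5.

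The other complex I mRNAs encode proton-pumping or membrane subunits. MT-ND1 had 292, 238 and 255 CPM per kb and MT-ND5 had 182, 155 and 172. Both were low at day 3, at -0.29 and -0.23 over day 0, and nearer to it at day 5, at -0.19 and -0.08. MT-ND2 had 694, 628 and 757, with ratios of -0.14 [-0.18 to -0.11] at day 3 and 0.13 [0.10 to 0.16] at day 5. MT-ND6 had only 707, 624 and 1080 reads, the fewest of the 13, and its ratios were -0.16 [-0.32 to -0.01] and 0.33 [0.19 to 0.47]. Whether the counting used strand is not given in the sources used here, so reads of MT-ND6 cannot be told from antisense RNA of the opposite strand.

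MT-CYB, the cytochrome b of complex III, had 234, 209 and 224 CPM per kb, and ratios of -0.17 [-0.22 to -0.11] at day 3 and -0.07 [-0.12 to -0.01] at day 5 over day 0. The complex IV mRNAs had no common direction. MT-CO1 had ratios of -0.29 [-0.31 to -0.27] at day 3 and -0.15 [-0.17 to -0.13] at day 5 over day 0. MT-CO2, which carries the first copper centre, had 493, 514 and 489.9 CPM per kb, with ratios of 0.06 [0.01 to 0.11] and -0.01 [-0.05 to 0.03]. MT-CO3, a core subunit without a redox centre, had 1049, 1085 and 1109.5, with ratios of 0.05 [0.02 to 0.08] and 0.08 [0.05 to 0.11]. The small positive ratios of MT-CO2 and MT-CO3 at day 3 were -0.01 and -0.02 when libraries were scaled by their totals alone, and also below 0 with TPM or with the trends removed. The median of all genes was itself -0.06 with library totals and -0.08 with TPM, and 0.02 with the trends removed.

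The tables split each gene's reads into exon reads and reads called intronic, although each mitochondrial mRNA gene was a single exon as long as the gene and had no exon-exon read in any library. How reads came to be listed as intronic in these genes is not given in the sources used here. They were 12103, 10546 and 12170 of the mitochondrial mRNA reads, or 8.29%, 8.23% and 6.96%, and were concentrated in a few genes. Exon reads made up 28.0%, 24.3% and 23.3% of MT-ATP8 reads and 39.3%, 38.5% and 65.3% of MT-ND4L reads. For MT-ATP6 they made up 67.2%, 66.9% and 72.8%, and for MT-ND6 68.6%, 69.1% and 77.4%. For MT-ND3 they were 95.8%, 95.9% and 98.2%.

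This split changed what MT-ND4L showed. Its exon reads were 2536, 1815 and 5228, high at day 5, whereas its other reads were 3919, 2902 and 2776, highest at day 0. The log2 ratio at day 5 over day 0 was 0.75 [0.69 to 0.82] from exon reads and -0.78 [-0.85 to -0.71] from the others, beside 0.03 from their sum. At day 3 over day 0 both were below 0, at -0.50 and -0.42. MT-ATP8 was high at day 5 by either kind, at 0.88 [0.67 to 1.10] over day 0 from 251, 187 and 566 exon reads and at 1.25 from the others. MT-ND3 had 0.82 by exon reads. Across the 13 mRNAs, the reads listed as intronic were below day 0 at day 5 in 12, all but MT-ATP8, and the interval lay below 0 in 9 of these. MT-ATP6, MT-ND6 and MT-CYB had -0.06, -0.14 and -0.01 with intervals that include 0. Exon reads were above day 0 in 7. Over whole libraries the intronic share was higher at day 5 (6.68%) than at day 0 (6.01%). That share includes FP236383.1, with 120365 reads at day 0 and 250099 at day 5, and FP671120.1, with 110948 and 226066. It was not calculated without these genes, so no contrast with the mitochondrial genes is drawn.

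**Figure D3:**
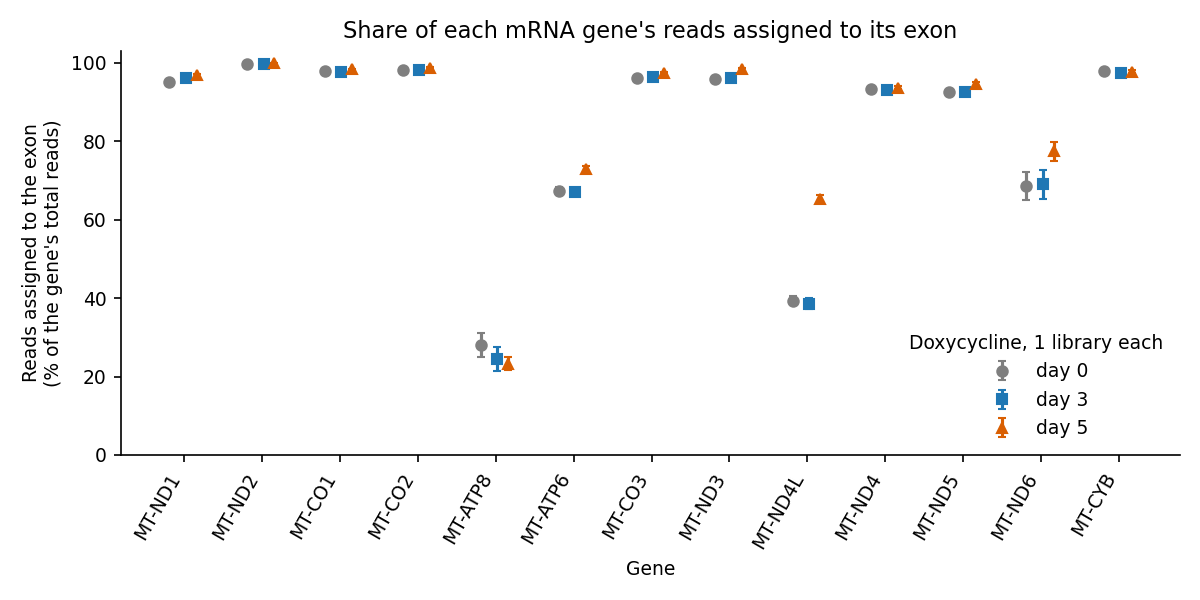
Exon reads as a percentage of total gene reads for each mitochondrial mRNA gene in the 3 libraries, with exact 95% binomial intervals (most smaller than the points). MT-ATP8, MT-ND4L, MT-ATP6 and MT-ND6 lie below 80%, and MT-ND4L alone shifts from under 40% at days 0 and 3 to 65.3% at day 5.

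MT-ATP8, MT-ND4L and MT-ND3 are the 3 shortest mRNA genes, and length went with the day 5 ratio. Over the 13 mRNAs, Spearman's rho between gene length and the log2 ratio was -0.78 at day 5 over day 0 and -0.86 with exon reads, against -0.23 and -0.03 at day 3 over day 0. These are descriptions over genes that share libraries and precursor RNAs. Without the 3 short genes, the summed mRNAs had -0.16 at day 3 and -0.06 at day 5 over day 0. Among the nuclear protein-coding genes compared (mean of at least 50 reads), only 6 had exons under 500 bases in total. The 99 of 500 to under 1000 bases had a median of 0.27 at day 3 over day 0, 0.18 at day 5 over day 0 and -0.07 at day 5 over day 3. The 10691 genes of 2000 bases or more had 0.01, 0.00 and -0.00 in the same comparisons. The 1.5-fold rule at day 5 over day 0 was passed as higher by 12.1% of the shorter and 1.15% of the longer genes, and at day 3 over day 0 by 4.04% and 1.02%. The part of length in the ratios of MT-ATP8 and MT-ND3 was not tested beyond the removal of the length and GC trends, which left 0.86 and 0.50 at day 5 over day 0. The lengths of MT-ATP8, MT-ND4L and MT-ND3, all under 500 bases, lie at the extreme short end of those trends, where few nuclear protein-coding genes were compared.

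**Figure D4:**
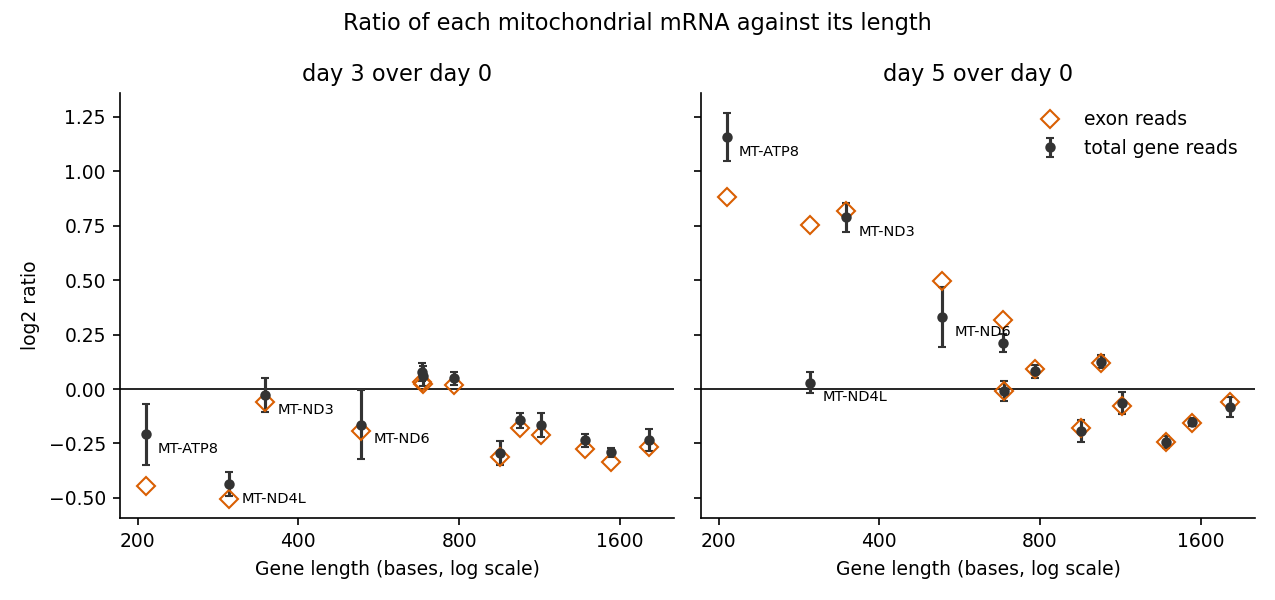
Log2 ratio of each of the 13 mitochondrial mRNAs against gene length (log axis) at day 3 and day 5 over day 0, from total gene reads (filled, with 95% counting intervals) and exon reads (open). At day 5 the ratios are higher for shorter genes, with MT-ND4L near 0 by total reads and at 0.75 by exon reads, whereas at day 3 no such order is seen.

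The rRNA genes had no exon length in the tables, so all their reads were listed as intronic and their TPM was listed at 0. By total reads, MT-RNR1, the 12S rRNA of the small ribosomal subunit, had 1943, 1778 and 2230 reads, or 94.3, 87.3 and 89.1 CPM per kb. MT-RNR2, the 16S rRNA of the large subunit, had 4122, 3603 and 5373 reads, or 122, 108 and 131. Both were lower at day 3 than at day 0, at -0.11 [-0.20 to -0.02] and -0.18 [-0.24 to -0.11]. MT-RNR1 was at -0.08 [-0.17 to 0.01] at day 5 over day 0, and MT-RNR2 at 0.10 [0.04 to 0.16]. MT-RNR2 exceeded MT-RNR1 per kb by 1.30-fold, 1.24-fold and 1.47-fold. The summed rRNAs were at -0.16 [-0.21 to -0.10] at day 3 and 0.05 [-0.00 to 0.09] at day 5 over day 0. The summed mRNAs were at -0.17 [-0.18 to -0.16] and -0.02 [-0.03 to -0.01], so the intervals overlapped at day 3 only. The libraries were made for mRNA, so these levels do not measure all rRNA of the cells.

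The tRNA genes were at the floor of detection in these libraries made for mRNA. Reads were listed for 7, 6 and 7 of the 22 genes at days 0, 3 and 5, 12 had a read in at least 1 library and 10 had none. No tRNA gene had more than 6 reads over the 3 libraries. A count of 0 allows up to 3 reads, which is 0.139, 0.140 and 0.114 CPM at the 3 depths, so differences in tRNA levels were not detectable here.

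Unique and total reads gave nearly the same picture. Of the mitochondrial reads, 96.5%, 96.8% and 96.1% were unique, and all rRNA and tRNA reads were. MT-ND2 had 77.9%, 80.5% and 75.9% unique reads, the lowest among the mRNAs, and 10 of the 13 mRNAs had at least 99% in every library. The non-unique reads were 5283, 4232 and 7150, of which MT-ND2, MT-CO1 and MT-ATP6 together held 98.0%, 96.7% and 98.2%. With unique reads alone, MT-ND2 had ratios of -0.10 at day 3 and 0.10 at day 5 over day 0, and MT-ATP8 had -0.21 and 1.17.

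Nuclear DNA holds copies of mitochondrial sequence, and the copies on chromosome 1 run from base 629062 to 634922 (GRCh38), from MTND1P23 to MTCO3P12. Their identity to the mitochondrial genes was 98.4% for the MT-ND2 copy, 98.7% for MT-CO1, 98.5% for MT-ATP6 and 97.6% for MT-ATP8. Of all 50-base stretches, 43.6% in MT-ND2, 49.5% in MT-CO1 and 46.7% in MT-ATP6 also occurred in an annotated nuclear copy, against 8.23% in MT-ATP8 and 0% in MT-ND3 and MT-ND4L. The 7 copies of this stretch were listed at 0 reads in every library. Over all 405 nuclear copies, reads summed to 21, 51 and 72, led by MTCO1P53 with 2, 18 and 11 and MTCO2P23 with 4, 7 and 19. The next were MTRNR2L8, MTCO1P21, MTCO1P4, MTCO2P11, MTRNR2L12 and MTND2P40, with at most 9 reads in a library. How reads were divided between a gene and its copy is not given in the sources used here, so the values of MT-ND2, MT-CO1 and MT-ATP6 are uncertain in this respect.

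The nuclear genes that maintain, transcribe, process, stabilise and translate the mitochondrial genome were all measured (61 of 61). Their median ratio was 0.09 at day 3 and 0.05 at day 5 over day 0, with 40 and 38 above 0. None passed as 1.5-fold different at day 3, where 1.29% of all genes passed as higher and 2.53% as lower. At day 5 only SLIRP passed, as higher, and 1 of 61 is close to the 1.75% of all genes that did so. SLIRP, the partner of LRPPRC in protecting mitochondrial mRNAs, had 863, 995 and 1642 reads and ratios of 0.22 [0.09 to 0.36] and 0.65 [0.53 to 0.77]. LRPPRC itself stood at -0.00 and 0.03. By role, the 8 genes of RNA stability had medians of 0.05 and 0.11, the 23 of RNA processing 0.08 and -0.02, and the 12 of translation 0.17 and 0.11.

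The core transcription machinery gave mixed values. POLRMT, the mitochondrial RNA polymerase, had ratios of 0.02 at day 3 and -0.22 [-0.30 to -0.13] at day 5 over day 0. TFB2M, its initiation factor, had 0.24 [0.08 to 0.40] and 0.51 [0.36 to 0.65]. TFAM, which packages the DNA and starts transcription, had -0.08 and 0.18, and MTERF1, a transcription termination factor, had 0.03 and 0.37. The 8 transcription genes had medians of 0.12 and 0.15, and the 10 of DNA maintenance -0.02 and 0.06. HSD17B10 and TRMT10C, the non-nuclease subunits of mitochondrial RNase P, had 0.45 [0.33 to 0.56] and 0.05, and 0.35 and 0.46. The nucleases that release tRNAs, chosen after their values were seen, had smaller ratios at day 3: ELAC2 had 0.12 and -0.04, and PRORP, with only 6.44% unique reads, had 0.06 and 0.18. MTPAP, the mitochondrial poly(A) polymerase, had 0.11 and 0.30, MTIF3, an initiation factor of translation, 0.12 and 0.45, and SSBP1, the single-stranded DNA binding protein, 0.32 and 0.17. TEFM and MTERF4 had 0.18 and 0.26, and 0.27 and 0.10, with only 79.7% and 58.9% of their reads unique.

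The mitochondrial mRNAs and the nuclear subunits of the same complexes stood on opposite sides of 0 at day 3. The 13 mitochondrial mRNAs had a median log2 ratio of -0.17 at day 3 over day 0, with 3 above 0, whereas the 72 nuclear subunits of complexes I, III, IV and V had 0.23, with 70 above 0. All nuclear protein-coding genes compared had day 3 medians of 0.27 where exons summed to 500 to under 1000 bases and 0.20 from 1000 to under 2000, close to that of the nuclear subunits. The medians at day 5 were 0.03 for the mitochondrial mRNAs and 0.23 for the nuclear subunits. Of the 72 nuclear subunits, 5 passed as 1.5-fold higher at day 5: ATP5ME at 1.04 and ATP5F1E at 0.60 of the ATP synthase, NDUFA1 at 0.62 and NDUFA3 at 0.63 of complex I, and UQCRQ at 0.71 of complex III. These 5 of 72 stand beside 1.75% of all genes compared and 12.1% of the nuclear genes of 500 to under 1000 bases. The difference between mitochondrial and nuclear subunits was not tested.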

How the data were processed

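Per the file headers, the authors deposited for each library whole-number counts per Ensembl gene (total, unique, exon, exon-exon and intron reads) and TPM, which the values show to rest on exon reads and exon length. Neither aligner nor counter is named in the sources used here. The submitters' processing notes name the mouse build mm10, but the gene identifiers are human and every mitochondrial coordinate matched GENCODE 29 (GRCh38). The whole-series TPM table repeats these TPM and its 3 columns were not used.

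Total gene reads were scaled by TMM over all genes (edgeR 4.0.16, factors 1.01, 0.968 and 1.02 at days 0, 3 and 5), with a prior count of 0.5 for ratios. A gene was called when its ratio reached 1.5-fold and its exact conditional (Clopper-Pearson) 95% interval excluded 1; only genes averaging 50 or more reads per library were compared. Reads without molecular identifiers are not independent molecules. The code of the intervals was checked on simulated Poisson counts. These hold no variance between replicates and no duplicate reads, so the check says nothing about either. Alternatives used library totals, DESeq2 1.42.0 size factors, unique or exon reads, log2(TPM + 0.5), a prior count of 5, TMM without mitochondrial genes, TMM on genes averaging 50 or more reads, and lowess removal (span 0.3) of length and GC trends, with sequences from GENCODE 29. Nuclear genes were named by size among those with a mean of at least 200 reads, up to 10, beside POLRMT, TFAM, TFB2M, LRPPRC and SLIRP (TFB2M and SLIRP were also among the 10), and nuclear copies by their reads. Nuclear subunits passing the rule at day 5 were named after their values were seen. The members and lists were chosen with earlier results of these data known. Figures were drawn with matplotlib 3.10.9.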

Additional observations from a re-analysis of the deposited data

Results flagged for a closer look

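In 4 genes the counting intervals lay below 0 at day 3 over day 0 and above 0 at day 5 over day 0. MT-ATP8 had log2 ratios of -0.21 at day 3 and 1.16 at day 5, MT-ND6 had -0.16 and 0.33, MT-ND2 had -0.14 and 0.13, and MT-RNR2 had -0.18 and 0.10. Both ratios share the day 0 library, and the difference between the days was not tested against replicate error.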

How the results depend on the processing

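No paired analysis was possible because there was 1 library per day, and none could be left out. The depth limits the tRNAs, all near the floor, and MT-ND6 and MT-ATP8, with 624 to 898 reads at days 0 and 3. The median of the mRNAs at day 3 over day 0 was -0.17 as reported, -0.23 with library totals, -0.31 with TPM and -0.26 with length and GC trends removed. At day 5 over day 0 it was 0.03, 0.093 with exon reads, 0.088 with TPM and -0.20 with trends removed. At day 5 over day 3 it was 0.14, 0.21 with library totals, 0.21 with exon reads, 0.30 with TPM and 0.11 with trends removed. The median of all genes moved in the same direction with library totals and TPM. It was -0.06 and -0.08 at day 3 over day 0, and 0.07 and 0.09 at day 5 over day 3. The number of mRNAs at least 1.5-fold different was 0 at day 3 over day 0 and 1 with TPM (MT-ND4L, -0.60). It was 2 at day 5 over day 0, 1 with trends removed, and 3 with exon reads or TPM, which add MT-ND4L. At day 5 over day 3 it was 2, 4 with exon reads or TPM, which add MT-ND4L and MT-ND6, and 1 with trends removed. The cause was not tested. DESeq2 size factors, a prior count of 5 and TMM without mitochondrial genes or on genes averaging 50 or more reads left these medians and counts of mRNAs within counting error. Of 387 values of single genes under the alternatives, 365 kept their sign and 22 did not, among them MT-ND4L at day 5 over day 0, at -0.22 with trends removed. MT-ATP8 ran from 0.86 to 1.17 and MT-ND3 from 0.50 to 0.82 at day 5 over day 0. Over all genes, 481, 382 and 409 passed in the 3 comparisons, and 1004, 914 and 975 with a minimum mean of 10 reads.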
